A study of Mus musculus with 2 samples.

Results

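Aldosterone-sensitive sodium transport in the kidney was followed through 10 genes, Slc12a3, Scnn1a, Scnn1b, Scnn1g, Nr3c2, Hsd11b2, Sgk1, Wnk1, Klhl3 and Nedd4l. They were taken by symbol, and all 10 were found among the 31053 genes counted. Mice were 16 weeks old, and single cells of their kidney cortex gave 1 library labelled PT I-PpoI and 1 labelled wild type. The homing endonuclease I-PpoI cuts DNA, and the series title places it in epithelial cells of the proximal tubule. The labels name neither the promoter that drove it nor the strain, and do not say whether animals were pooled. No feature was listed for the enzyme, so the genotype label was not checked from its transcript. With 1 library per group there was no test between groups, and every interval given covers counting error alone. Paired values give the PT I-PpoI library first, then the wild-type library.

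The distal nephron lies downstream of the thick ascending limb and sets how much sodium leaves in the urine. The distal convoluted tubule takes up sodium through NCC, the thiazide-sensitive sodium chloride cotransporter encoded by Slc12a3. The connecting tubule and the collecting duct take it up through ENaC, the epithelial sodium channel, whose alpha, beta and gamma subunits come from Scnn1a, Scnn1b and Scnn1g. Aldosterone binds the mineralocorticoid receptor (Nr3c2), and 11-beta-hydroxysteroid dehydrogenase type 2 (Hsd11b2) inactivates glucocorticoids that would otherwise occupy that receptor. Sgk1 is a kinase induced by corticosteroids that restrains the ubiquitin ligase Nedd4-2 (Nedd4l), which removes ENaC from the membrane. WNK1 belongs to the kinases that switch on NCC, and KLHL3 is the adaptor that sends WNK kinases for degradation.

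The 5086 and 11943 cells kept held a median of 11186 and 2700 UMIs (unique molecular identifiers, 1 per captured transcript). Cell classes were rebuilt by clustering without the 10 genes and are called "-like" after marker genes that include none of them. The classes read here held 1461 and 1111 cells like thick ascending limb (TAL), 535 and 180 like distal convoluted tubule (DCT), 195 and 99 like connecting tubule (CNT), 448 and 169 like principal cells (PC), and 353 and 260 like intercalated cells (IC). Each of the DCT, CNT, PC and IC marker lists had 0 genes at 0 in its own class in both libraries. Markers of neighbouring segments were present too. The CNT list, which holds the abundant S100g, summed to 8166 and 19910 CPM in DCT-like cells, above the DCT list at 6706 and 4158 CPM. In IC-like cells it summed to 13260 and 17570 CPM, above the IC list at 7913 and 5984 CPM, and in CNT-like cells to 41970 and 77430 CPM. Proximal tubule markers summed to 34.4 and 560 CPM in DCT-like cells, 40.2 and 652 CPM in CNT-like cells and 25.2 and 826 CPM in PC-like cells, where CPM are UMIs per 1000000 UMIs of a class. Free RNA was estimated at 3.64% and 12.8% of DCT-like UMIs, 4.19% and 10.7% in CNT-like cells, and 7.11% and 29.5% in IC-like cells. Kept cells of the libraries shared 22 barcodes, 0.433% of the PT I-PpoI cells. The part of these differences in the results below was not tested. Reads were counted at the 3′ end, so a level is not scaled by transcript length, and levels are compared between classes rather than between genes.

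**Figure D1:**
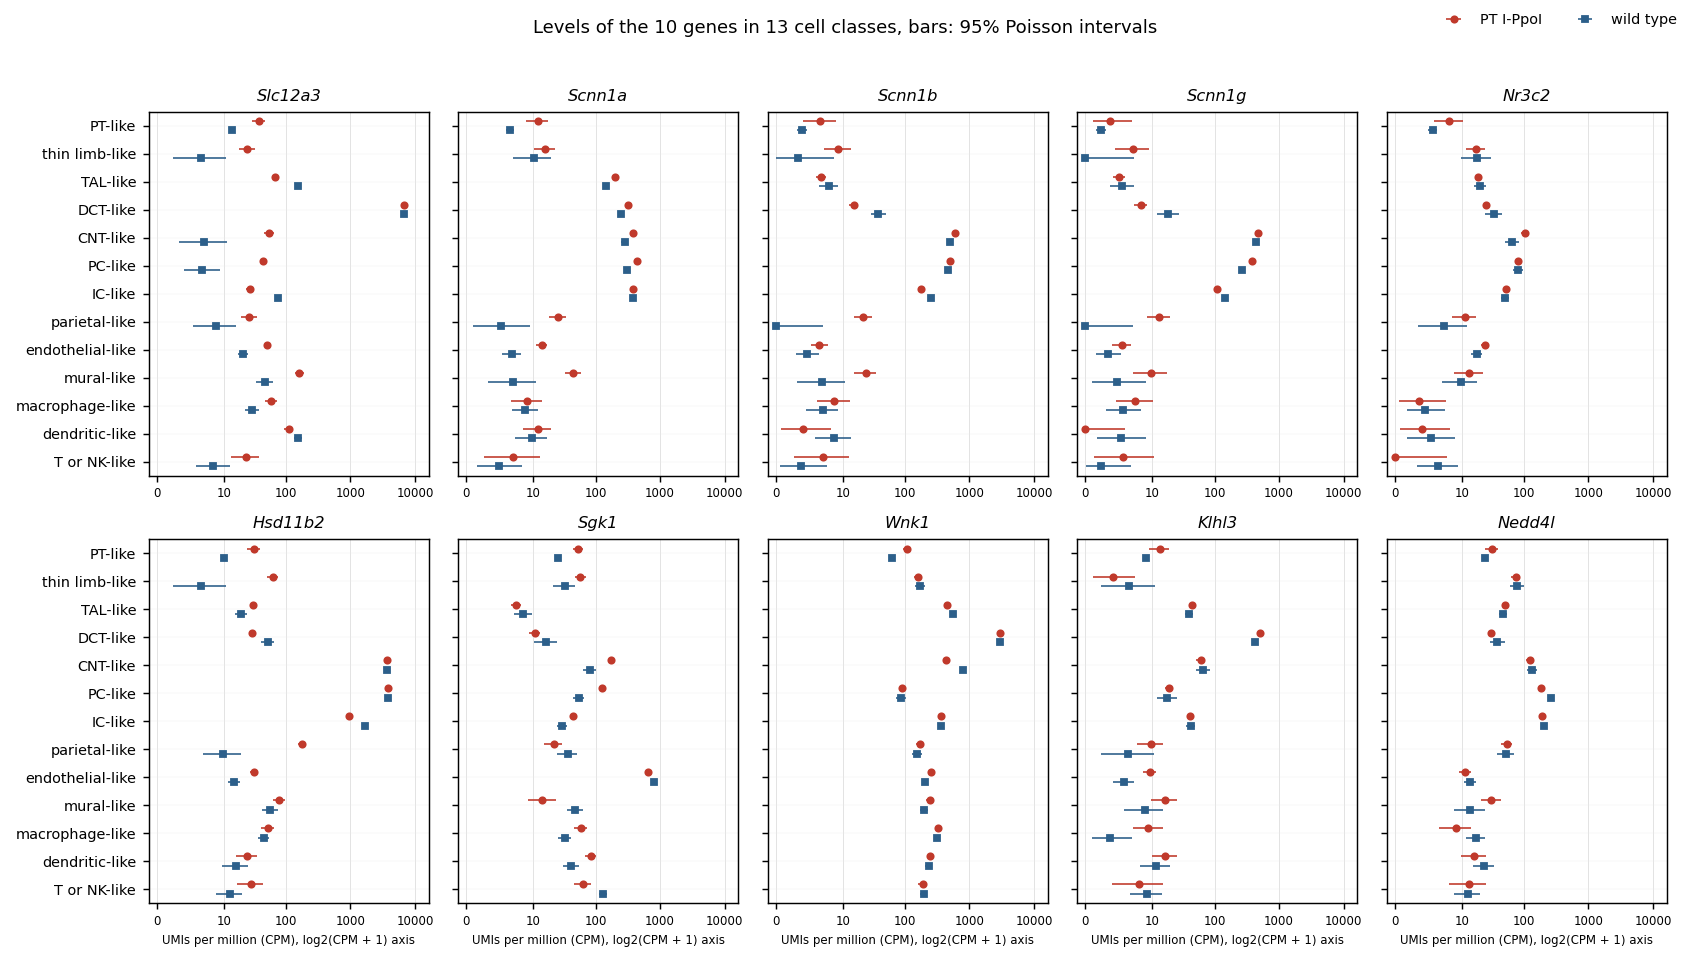
Levels of the 10 genes in 13 cell classes, in CPM on a log2(CPM + 1) axis, with 95% Poisson intervals for PT I-PpoI (circles) and wild type (squares). Slc12a3, Wnk1 and Klhl3 peak in DCT-like cells, Scnn1b, Scnn1g and Hsd11b2 in CNT- and PC-like cells, and Sgk1 in endothelial-like cells.

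Slc12a3 marked DCT-like cells at nearly the same level in both libraries. It stood at 6822 CPM (95% Poisson interval 6767 to 6877, from 59284 UMIs) in PT I-PpoI and 6847 CPM (6709 to 6988, from 9335 UMIs) in wild type. The intervals overlapped. Among the 13 classes compared, the next in order were mural-like and dendritic-like cells in PT I-PpoI, at 161 and 110 CPM, and dendritic-like and TAL-like cells in wild type, at 153 and 151 CPM. In these mural-like cells 10 cells held 92.3% of the UMIs, and in the wild-type dendritic-like cells 10 cells held 100%. Classes with under 50 cells in a library also reached such levels, as fibroblast-like cells did in PT I-PpoI, at 485 CPM from 7 of 33 cells. With every cell thinned to 2000 UMIs, a Slc12a3 UMI was read in 99.2% and 95% of DCT-like cells, against 6.11% and 0.836% of T- or NK-like cells, which should lack it. Slc12a3 lies on chromosome 8 (mm10, chr8:94329201-94366214, plus strand). The 250 bases before its RefSeq start, chr8:94328958-94329207, end just inside that GENCODE gene and hold 2 copies of the GC box GGGCGG, here read on either strand, and the TATA box TATAAA, both given in capitals, 5′ to 3′ on the plus strand of GRCm38.p6 from RefSeq. Among 32851 promoters of 300 bases searched on both strands, 35.7% held the GC box and 13.6% held TATAAA.
Slc12a3 promoter: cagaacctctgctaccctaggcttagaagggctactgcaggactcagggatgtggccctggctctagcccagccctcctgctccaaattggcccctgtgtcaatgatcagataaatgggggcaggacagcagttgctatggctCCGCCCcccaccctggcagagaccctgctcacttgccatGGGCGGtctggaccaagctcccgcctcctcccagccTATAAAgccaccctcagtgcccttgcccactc

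The kinase gene Wnk1 and the adaptor gene Klhl3 also peaked in DCT-like cells. Wnk1 reached 2957 CPM (2921 to 2993) and 2934 CPM (2844 to 3026) there. It was lower in CNT-like cells, at 435 CPM (409 to 462) and 782 CPM (725 to 843), and in TAL-like cells, at 442 CPM (433 to 452) and 550 CPM (528 to 572). CNT- and TAL-like cells overlapped in PT I-PpoI, whereas CNT-like cells lay above TAL-like cells in wild type. Wnk1 stood at 88.0 and 86.6 CPM in PC-like cells, and at 330 and 319 CPM in macrophage-like cells. The gene makes a full-length kinase and a short kidney-specific form from a later start. UMIs at the 3′ end count both forms together. Klhl3 stood at 501 CPM (487 to 516) and 425 CPM (391.5 to 461.5) in DCT-like cells and at 60.7 and 66.2 CPM in CNT-like cells, the next class in both libraries. TAL-like cells held 43.6 and 40.1 CPM of Klhl3, and IC-like cells 40.9 and 42.4 CPM, with overlapping intervals in each library. Both genes lie on minus strands, Wnk1 at chr6:119923969-120038672 and Klhl3 at chr13:58000228-58113592 (mm10).

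Within TAL-like cells, Wnk1 differed between clusters more than between libraries. A cluster led by Egf and Cldn16 (1043 and 475 cells) held 564 and 659 CPM of Wnk1, while a cluster led by Nccrp1 and holding Ptger3 among its leading genes (321 and 80 cells) held 79.1 and 80.3 CPM. Scnn1a followed the same order, at 242 and 169 CPM against 95.6 and 92.1 CPM. Cldn16 encodes a tight junction protein for divalent cations and Ptger3 a prostaglandin receptor.

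The ENaC subunit genes did not share a single pattern. Scnn1b and Scnn1g were concentrated in CNT- and PC-like cells, whereas Scnn1a was present from the TAL-like cells onward. Scnn1b stood at 607 CPM (576 to 640) and 504 CPM (459 to 553) in CNT-like cells, 493 CPM (479 to 508) and 459 CPM (427 to 492) in PC-like cells, and 176 and 251 CPM in IC-like cells. CNT- and PC-like cells overlapped in wild type and did not in PT I-PpoI. Scnn1g stood at 477 CPM (450 to 506) and 446 CPM (403 to 492) in CNT-like cells, above PC-like cells at 388 CPM (375 to 401) and 265 CPM (241 to 291) in both libraries. In TAL-like cells Scnn1b was at 4.02 and 5.60 CPM and Scnn1g at 2.33 and 2.69 CPM, near their levels in endothelial-like cells of 3.74 and 2.11 CPM and 2.67 and 1.23 CPM.

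Scnn1a, in contrast, stood at 202 and 145 CPM in TAL-like cells, 319 and 250 CPM in DCT-like cells, 385 and 285 CPM in CNT-like cells, 442 and 305 CPM in PC-like cells and 380 and 377 CPM in IC-like cells. PC-like cells ranked first in PT I-PpoI and IC-like cells in wild type. Endothelial-like cells held 13.8 and 4.05 CPM. The UMI ratio of Scnn1a to Scnn1b was 50.3 (40.1 to 64.0) and 26.0 (17.4 to 40.4) in TAL-like cells, 20.8 (17.5 to 25.0) and 6.56 (4.89 to 8.96) in DCT-like cells, 2.16 and 1.50 in IC-like cells, 0.896 and 0.666 in PC-like cells and 0.634 and 0.566 in CNT-like cells. The order of the classes was the same in both libraries. These ratios compare classes and do not measure subunit numbers, since capture may differ between transcripts. In thinned cells, Scnn1a was read with neither Scnn1b nor Scnn1g in 44.0% and 31.3% of DCT-like cells and 29.2% and 24.2% of TAL-like cells, against 6.5% and 6.4% of CNT-like cells. All 3 subunits were read together in 17.3% and 19.2% of CNT-like cells, 23.8% and 17.3% of PC-like cells and 0% of endothelial-like cells, where the 95% Clopper-Pearson upper limits were 0.485% and 0.313%.

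Scnn1g and Scnn1b are neighbours on chromosome 7, both on the plus strand, at chr7:121734479-121768475 and chr7:121865038-121918514 (mm10), with 96562 bases between them. Scnn1a lies at chr6:125320659-125344943. Over the 13 classes, Scnn1b and Scnn1g were each other's nearest profile among 6987 genes (Pearson r = 0.994 of log2(CPM + 1)), and their promoters are shown for that reason. The 250 bases before each start are chr7:121734229-121734478 for Scnn1g and chr7:121864788-121865037 for Scnn1b, on the plus strand of GRCm38.p6. Capitals mark the GC box, GGGCGG or its reverse complement, found 2 times in the Scnn1g stretch and 1 time in the Scnn1b stretch.
Scnn1g promoter: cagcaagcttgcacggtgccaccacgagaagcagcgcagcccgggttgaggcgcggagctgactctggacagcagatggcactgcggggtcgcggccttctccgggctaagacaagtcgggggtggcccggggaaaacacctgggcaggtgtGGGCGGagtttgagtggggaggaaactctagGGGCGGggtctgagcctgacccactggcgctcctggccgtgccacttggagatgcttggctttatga
Scnn1b promoter: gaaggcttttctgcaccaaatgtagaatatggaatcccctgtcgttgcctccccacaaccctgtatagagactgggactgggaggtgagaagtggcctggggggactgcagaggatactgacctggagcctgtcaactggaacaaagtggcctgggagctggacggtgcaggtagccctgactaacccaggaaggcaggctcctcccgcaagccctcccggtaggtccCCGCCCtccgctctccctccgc

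Hsd11b2, the enzyme that keeps the receptor selective for aldosterone, was highest in PC- and CNT-like cells. It stood at 3834 CPM (3794 to 3876) and 3760 CPM (3669 to 3854) in PC-like cells and at 3661 CPM (3584 to 3740) and 3634 CPM (3509 to 3761) in CNT-like cells. The classes overlapped in wild type and did not in PT I-PpoI. IC-like cells came next, at 938 and 1678 CPM. DCT-like cells held 29.5 CPM (26.0 to 33.3) and 51.4 CPM (40.0 to 64.9), which overlapped endothelial-like cells in PT I-PpoI, at 30.9 CPM (27.0 to 35.1), and lay above them in wild type, at 14.8 CPM (11.8 to 18.3). In thinned cells a Hsd11b2 UMI was read in 97.8% and 96.8% of CNT-like cells and in 6.11% and 2.51% of T- or NK-like cells. The gene lies at chr8:105518755-105523988 on the plus strand.

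The receptor gene Nr3c2 was spread over several classes. It stood at 102 CPM (89.6 to 116) and 65.1 CPM (49.4 to 84.2) in CNT-like cells, 80.5 CPM (74.6 to 86.6) and 80.8 CPM (67.8 to 95.5) in PC-like cells and 51.6 and 50.9 CPM in IC-like cells. DCT-like cells held 25.4 CPM (22.2 to 29.0) and 33.0 CPM (24.1 to 44.2). TAL-like cells held 18.2 and 19.9 CPM. Endothelial-like cells, at 23.9 and 17.8 CPM, overlapped DCT-like cells in PT I-PpoI but not in wild type. T- or NK-like cells gave 0 and 3.67 CPM, where the 0 in 138 cells has a limit of 4.39 CPM at 3 counts and a Poisson upper bound of 5.40 CPM. Nr3c2 and Hsd11b2 were read in the same thinned cell in 17.3% and 16.0% of CNT-like cells, 15% and 17.3% of PC-like cells, and 0.21% and 0.625% of DCT-like cells. Thus the receptor transcript of DCT-like cells was mostly read without that of the enzyme. Nr3c2 lies at chr8:76899442-77245012 on the plus strand.

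Sgk1 had its highest level outside the nephron. Endothelial-like cells held 658 CPM (639 to 676) and 798 CPM (775 to 821), with a UMI in 69.0% and 65.9% of thinned cells. Along the nephron it was highest in CNT-like cells, at 173 CPM (157 to 191) and 80.8 CPM (63.2 to 102), followed by PC-like cells at 126 CPM (118 to 133) and 54.2 CPM (43.7 to 66.5). DCT-like cells held 10.6 and 16.1 CPM and TAL-like cells 4.92 and 6.72 CPM. T- or NK-like cells held 62.9 and 131 CPM. Sgk1 lies at chr10:21882184-21999903 on the plus strand. RefSeq gives it 6 separate starts in the promoter table. The 250 bases before 1 of them, chr10:21993640-21993889 on the plus strand of GRCm38.p6, are shown because they hold the palindrome AGAACA, any 3 bases, TGTTCT, the consensus DNA element of corticosteroid receptors. Capitals mark that element and a further single arm (AGAACA, or TGTTCT on the other strand, which the palindrome also contains). The full palindrome was found in 3 of 32851 promoters (0.00913%) and the single arm in 19.0%.
Sgk1 promoter: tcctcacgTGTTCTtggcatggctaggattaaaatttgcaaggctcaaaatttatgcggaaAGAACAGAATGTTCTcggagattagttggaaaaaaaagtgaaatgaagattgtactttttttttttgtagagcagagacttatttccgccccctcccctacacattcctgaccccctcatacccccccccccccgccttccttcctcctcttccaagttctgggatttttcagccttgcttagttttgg

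Nedd4l, the ligase acting on ENaC, was spread over PC-like cells (184 and 260 CPM), IC-like cells (190 and 207 CPM) and CNT-like cells (122 and 132 CPM). IC- and PC-like cells overlapped in PT I-PpoI, and PC-like cells ranked above IC-like cells in wild type. Thin limb-like cells held 73.5 and 78.3 CPM, TAL-like cells 49.4 and 46.6 CPM and DCT-like cells 30.6 and 38.1 CPM. The gene was thus lower in the DCT-like class than in the classes on the ENaC side. Nedd4l lies on chromosome 18 at chr18:64887705-65217828 on the plus strand.

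Along the nephron, the levels differed in steps seen in both libraries. Between neighbouring classes, a gene was called when it differed 2-fold or more in the same direction in each library. From TAL- to DCT-like cells 6 of 10 genes were higher, against 2.92% of 9895 genes compared, and 0 were lower, against 4.8%. Slc12a3 was higher by 6.66 and 5.50 on the log2 scale, Klhl3 by 3.52 and 3.41, Wnk1 by 2.74 and 2.42 and Sgk1 by 1.10 and 1.27, with Scnn1b and Scnn1g the remaining 2. These last 2 were not higher in both libraries in the largest DCT-like subcluster, led by Pigr. Scnn1b stood there at 8.02 and 2.39 CPM, against 4.02 and 5.60 CPM in TAL-like cells. Scnn1g stood there at 1.38 and 0 CPM, against 2.33 and 2.69 CPM. From DCT- to CNT-like cells 5 genes were higher (background 6.77%) and 3 lower (background 3.46%). The higher genes were Hsd11b2 (6.96 and 6.14), Scnn1g (6.25 and 4.58), Scnn1b (5.31 and 3.71), Sgk1 (4.03 and 2.30) and Nedd4l (2.0 and 1.79), and the lower ones Slc12a3 (-6.99 and -10.41), Klhl3 (-3.04 and -2.67) and Wnk1 (-2.77 and -1.91). From CNT- to PC-like cells Wnk1 (-2.31 and -3.17) and Klhl3 (-1.69 and -1.89) were lower (2 of 10 genes, background 1.62%), and 0 were higher (background 6.12%). IC- over PC-like cells, Wnk1 (2.05 and 2.07) and Klhl3 (1.12 and 1.24) were higher (background 5.11%) and Hsd11b2 (-2.03 and -1.16) lower (background 6.89%).

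**Figure D2:**
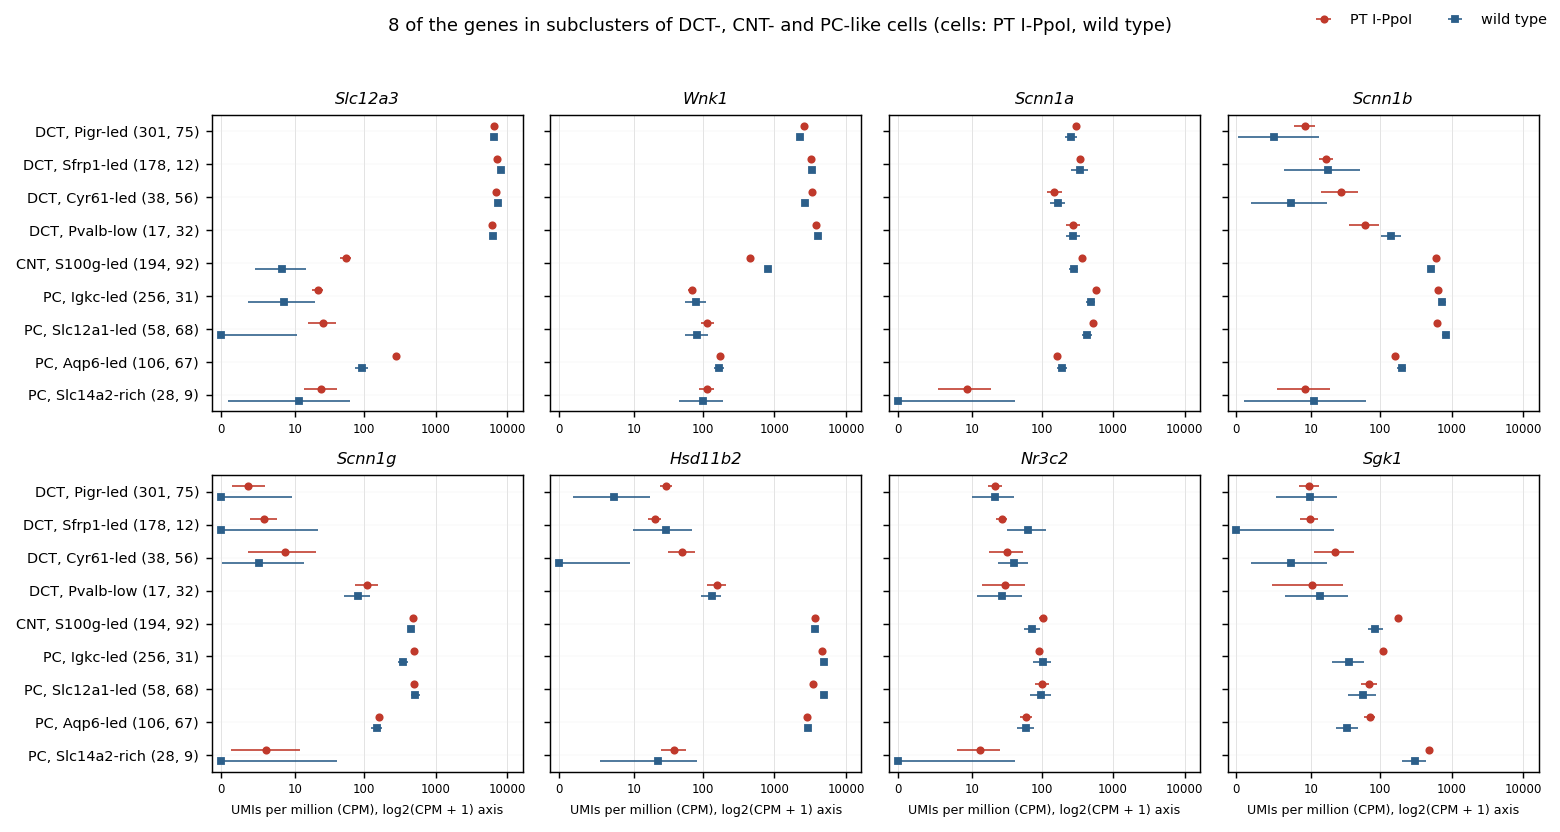
Levels of 8 genes in subclusters of DCT-, CNT- and PC-like cells, each named by a leading gene or by a marker, in CPM on a log2(CPM + 1) axis with 95% Poisson intervals; cell numbers are given as PT I-PpoI, wild type. The Pvalb-low DCT-like subcluster keeps Slc12a3 while Scnn1b and Scnn1g are higher than in the other DCT-like subclusters, and the Slc14a2-rich PC-like subcluster has low Scnn1 genes and high Sgk1.

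The DCT-like class held a small subcluster in which NCC and ENaC transcripts met. It was low in Pvalb (10.2 and 27.2 CPM), a calcium-binding protein of the early DCT, and rich in the calcium transport genes S100g (42330 and 42850 CPM) and Calb1 (8350 and 9583 CPM). Its 17 and 32 cells held Slc12a3 at 6008 and 6184 CPM and Wnk1 at 3782 and 4080 CPM. Scnn1b was at 61.3 CPM (18 UMIs) and 143 CPM (42 UMIs) and Scnn1g at 109 CPM (32 UMIs) and 81.7 CPM (24 UMIs). In the largest DCT-like subcluster, led by Pigr (301 and 75 cells), Scnn1b stood at 8.02 and 2.39 CPM and Scnn1g at 1.38 and 0 CPM. Hsd11b2 was at 157 and 133 CPM in the Pvalb-low cells against 30.1 and 4.77 CPM in the Pigr-led cells. In thinned cells, Slc12a3 was read together with Scnn1b or Scnn1g in 4 of 16 (25.0%) and 8 of 29 (27.6%) Pvalb-low cells, against 0.132% and 0.085% of endothelial-like cells and 0 of 131 and 0 of 359 T- or NK-like cells. Over all DCT-like cells the shares were 2.94% and 6.88%. Sgk1 did not follow ENaC here, at 10.2 and 13.6 CPM.

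PC-like cells also differed among themselves. Subclusters led by Igkc (256 and 31 cells) and by Slc12a1 (58 and 68 cells) held Scnn1b at 648 and 743 CPM and at 624 and 830 CPM. Slc12a1 and Cldn10, the next leading gene of that subcluster, are on the TAL marker list. The TAL list summed to 813 and 487 CPM over PC-like cells. The part of TAL RNA in the Slc12a1-led values was not tested. The subcluster led by Aqp6, a water channel gene of intercalated cells, also had the type A marker Slc4a1 and the principal cell gene Aqp4 among its leading genes (106 and 67 cells) and held Scnn1b at 164 and 201 CPM. It kept Hsd11b2 at 2893 and 2927 CPM. A subcluster rich in the urea transporter gene Slc14a2 (312 and 327 CPM; 28 and 9 cells) carried Aqp2 at 17120 and 18680 CPM, yet Scnn1a at 8.18 and 0 CPM, Scnn1b at 8.18 and 11.3 CPM, Scnn1g at 3.27 and 0 CPM, and Hsd11b2 at 39.3 and 22.5 CPM. Sgk1 in those cells stood at 491 CPM (300 UMIs) and 304 CPM (27 UMIs), above the 110 and 35.9 CPM of the Igkc-led cells. Of the 4 PC-like subclusters named here, the one with the highest Sgk1 had the lowest ENaC levels in both libraries.

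IC-like cells were split by whether they carried principal cell transcripts. Intercalated cells secrete acid or base, and type A cells are marked by the anion exchanger gene Slc4a1, type B cells by pendrin (Slc26a4). A group of 109 and 81 cells was deep (median 38631 and 25375 UMIs) and held Aqp2 at 1545 and 2811 CPM beside Slc4a1 at 396 and 352 CPM and Slc26a4 at 676 and 508 CPM. That group held Hsd11b2 at 2083 and 2821 CPM, Scnn1b at 321 and 393 CPM and Scnn1g at 235 and 233 CPM. In another group, type A-like with little Aqp2 (37.7 and 63.0 CPM; 99 and 58 cells; median 17740 and 8706 UMIs), Hsd11b2 was at 25.9 and 146 CPM and Scnn1g at 10.7 and 22.1 CPM. Scnn1b was at 141 CPM (124 to 159) and 95.3 CPM (72.0 to 124), and Scnn1a at 321 and 310 CPM. Without thinning, a Scnn1b UMI was read in 86.9% and 50% of these cells and a Scnn1g UMI in 17.2% and 10.3%. The cluster led by Slc26a4 (145 and 120 cells) held Scnn1b at 18.5 and 32.0 CPM. Whether the deep Aqp2-rich group holds 2 cells per barcode was not tested beyond the doublet caller.

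**Figure D3:**
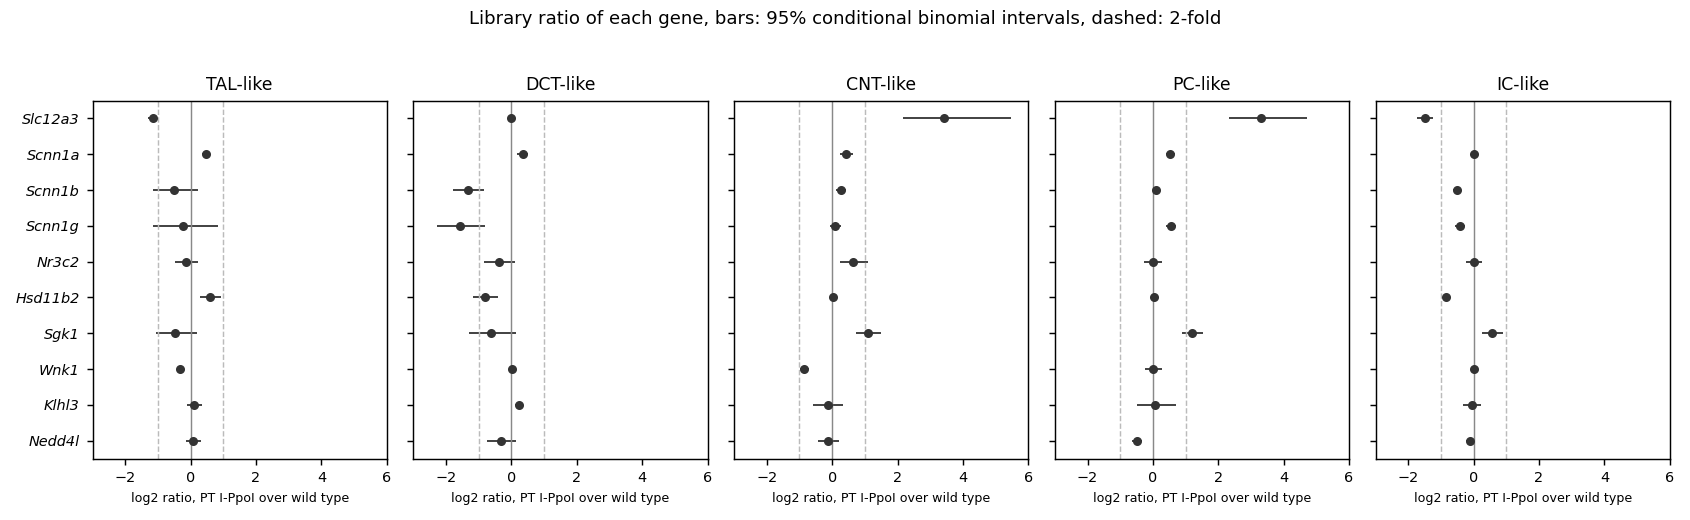
Log2 ratio of PT I-PpoI over wild type for each gene in 5 nephron classes, with 95% conditional binomial intervals that cover counting error, and dashed lines at 2-fold. Slc12a3 in DCT-like cells and Hsd11b2 in CNT- and PC-like cells lie at 0, and Sgk1 lies beyond 2-fold higher in CNT- and PC-like cells.

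Between the libraries, Slc12a3 and Wnk1 in DCT-like cells and Hsd11b2 in CNT- and PC-like cells differed little over the whole class. Other genes and the summed markers of the DCT and CNT lists given above differed more. The log2 ratio of PT I-PpoI over wild type was -0.01 (-0.04 to 0.03) for Slc12a3 and 0.01 (-0.04 to 0.06) for Wnk1 in DCT-like cells. For Hsd11b2 it was 0.01 (-0.05 to 0.07) in CNT-like and 0.03 (-0.01 to 0.07) in PC-like cells, and for Scnn1b 0.27 (0.11 to 0.43) and 0.11 (-0.01 to 0.22). Over PC-like subclusters, Hsd11b2 was at -0.50 (-0.59 to -0.41) in Slc12a1-led, -0.09 in Igkc-led, -0.02 in Aqp6-led and 0.51 in Slc14a2-rich cells (24 and 2 UMIs). Klhl3 was 0.24 (0.11 to 0.36) in DCT-like cells. By subcluster it was 0.44 in Pigr-led, 0.49 in Cyr61-led, -0.44 (-0.69 to -0.17) in Sfrp1-led and -0.10 in Pvalb-low cells. Scnn1a lay higher in PT I-PpoI in TAL-like (0.48), DCT-like (0.35), CNT-like (0.43) and PC-like cells (0.53), and at 0.01 in IC-like cells. Within DCT-like cells its ratio was 0.21 in Pigr-led, 0.02 in Sfrp1-led, -0.16 in Cyr61-led and -0.001 in Pvalb-low cells. Each of these intervals held 0. Sfrp1-led cells made up 33.3% and 6.67% of that class, and Cyr61-led cells 6.92% and 31.1%. Within PC-like cells the Scnn1a ratio was 0.25 in Igkc-led, 0.27 in Slc12a1-led, -0.22 in Aqp6-led and 0.68 in Slc14a2-rich cells (5 and 0 UMIs). The part of class makeup in the Klhl3, Scnn1a and Scnn1g ratios was not tested. Scnn1g was higher in PT I-PpoI over all PC-like cells, at 0.55 (0.41 to 0.69). By subcluster the Scnn1g ratio was 0.49 (0.26 to 0.73) in Igkc-led, -0.07 in Slc12a1-led, 0.11 in Aqp6-led and -0.46 in Slc14a2-rich cells (2 and 0 UMIs). Nedd4l was lower in PC-like cells, at -0.50 (-0.65 to -0.34). The median ratio of the 10 genes was -0.36 in DCT-like, 0.18 in CNT-like and 0.09 in PC-like cells, against -0.06, 0.05 and 0.00 over all genes compared. Without the Pvalb-low subcluster the DCT-like median of the 10 genes was -0.045.

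In CNT- and PC-like cells, Sgk1 was higher in PT I-PpoI in both classes. It stood at 173 CPM (406 UMIs) and 80.8 CPM (72 UMIs) in CNT-like cells, a log2 ratio of 1.09 (0.74 to 1.48), and at 126 CPM (1103 UMIs) and 54.2 CPM (92 UMIs) in PC-like cells, a ratio of 1.21 (0.91 to 1.54). In each class 2 of 10 genes were 2-fold or more higher, Sgk1 and Slc12a3, against 3.79% and 2.84% of all genes, and 0 were 2-fold lower (2.2% and 3.43%). Slc12a3 there rested on few UMIs in wild type, at 53.4 CPM (125 UMIs) and 4.49 CPM (4 UMIs) in CNT-like cells and 43.5 CPM (382 UMIs) and 4.13 CPM (7 UMIs) in PC-like cells. The free RNA of empty barcodes held 760 and 45.3 CPM of Slc12a3, which differed in the same direction. With the estimated free RNA subtracted, Slc12a3 stood at 22.5 and 0 CPM in CNT-like cells and at 1.82 and 0 CPM in PC-like cells. Sgk1 stood at 66.5 and 23.9 CPM in the free RNA, and after subtraction at 178 and 87.6 CPM in CNT-like cells and 129 and 59.5 CPM in PC-like cells. Over the PC-like subclusters, the Sgk1 ratio was 1.57 in Igkc-led, 1.05 in Aqp6-led, 0.67 in Slc14a2-rich and 0.27 in Slc12a1-led cells. The Igkc-led subcluster was also led by Igha and Jchain, genes of antibody-secreting cells, and the 6 B cell markers summed to 187 and 17.7 CPM over PC-like cells, with 0 and 2 of them at 0. The 9 intercalated markers summed to 136 and 680 CPM there. The part of these other cells' RNA in the Sgk1 ratio was not tested. The Slc12a1-led cells made up 11.8% and 39.1% of the PC-like class and the Igkc-led cells 56.3% and 17.8%.

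In CNT-like cells, several differences between the libraries changed when cells rich in Fxyd2 were left out. Fxyd2, the gamma subunit of the sodium pump, stood at 376 and 3492 CPM there, for a log2 ratio of -3.21 (-3.32 to -3.11). Cells with more than 2000 CPM of Fxyd2, a level set after the values were seen, numbered 8 of 195 (4.10%) and 39 of 99 (39.4%), and 22 and 15 cells lay between 1000 and 4000 CPM. These Fxyd2-rich cells held Wnk1 at 649 CPM (495 to 835) and 1332 CPM (1225 to 1445), and Sgk1 at 10.8 CPM (1 UMI) and 13.9 CPM (6 UMIs). In the other 187 and 60 cells Wnk1 stood at 426 and 262 CPM and Sgk1 at 180 CPM (163 to 199) and 144 CPM (112 to 184). The Wnk1 ratio was -0.85 (-0.99 to -0.71) over all CNT-like cells and 0.70 (0.43 to 0.99) without the Fxyd2-rich cells. The Sgk1 ratio was 1.09 over all CNT-like cells and 0.31 (-0.06 to 0.72) without them, and that of Klhl3 was -0.13 and 1.13 (0.33 to 2.17, 134 and 12 UMIs). Hsd11b2 was lower in the Fxyd2-rich cells (2499 and 2557 CPM) than in the others (3709 and 4653 CPM) in both libraries. Its ratio was 0.01 over all CNT-like cells and -0.33 (-0.40 to -0.26) without the Fxyd2-rich cells. Fxyd2 itself differed between the libraries, so a changed class makeup cannot be told apart from a changed Fxyd2 level. Fxyd2 made up 5952 and 3220 CPM of the free RNA, whose part in the split was not tested.

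**Figure D4:**
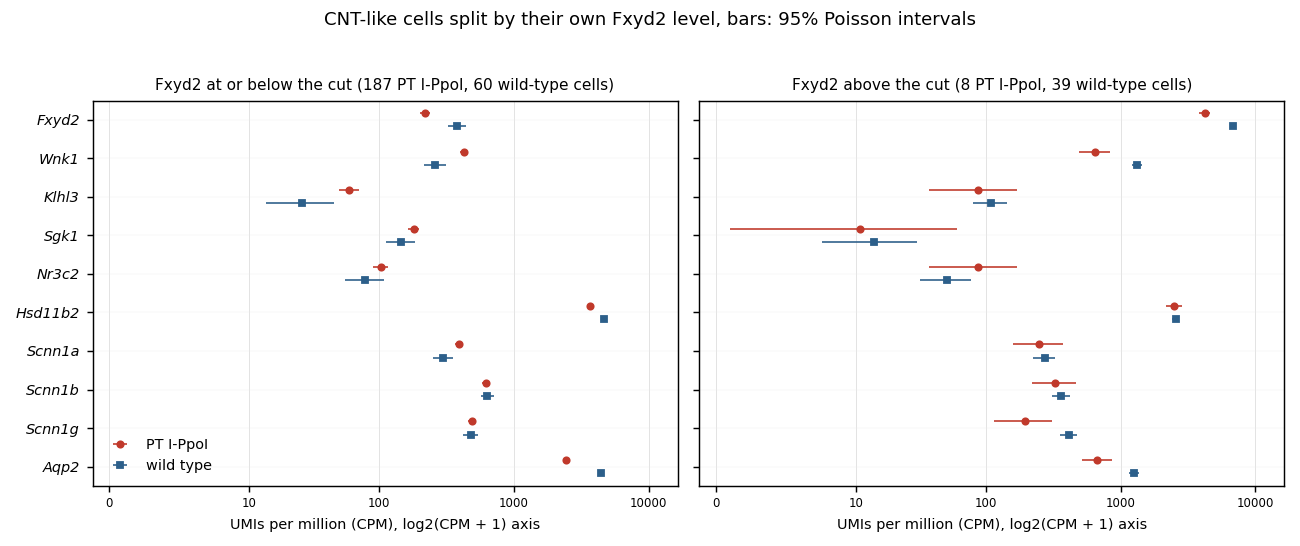
CNT-like cells split by their own Fxyd2 level at 2000 CPM, with levels in CPM on a log2(CPM + 1) axis and 95% Poisson intervals. Fxyd2-rich cells (right) hold more Wnk1 and less Sgk1, Hsd11b2 and Aqp2 than the other cells (left) in both libraries.

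In DCT-like cells Scnn1b and Scnn1g were 2-fold or more lower in PT I-PpoI, which made 2 of 10 genes against 4.96% of all genes, and 0 were 2-fold higher (2.53%). Scnn1b stood at 15.3 CPM (133 UMIs) and 38.1 CPM (52 UMIs), a ratio of -1.33 (-1.79 to -0.83), and Scnn1g at 6.21 CPM (54 UMIs) and 18.3 CPM (25 UMIs), a ratio of -1.58 (-2.27 to -0.82). Of DCT-like cells, 3.18% of the PT I-PpoI library and 16.7% of the wild-type library fell in the Pvalb-low subcluster. Without it the ratios were -0.06 for Scnn1b and 0.21 for Scnn1g. Early response genes also differed between the libraries in this class, where 9 of 12 were 2-fold lower in PT I-PpoI, among them Egr1 at 28.0 and 174 CPM and Fos at 176 and 782 CPM, and 2 were 2-fold higher. In endothelial-like cells 9 of 12 were 2-fold higher (background 5.55%) and 0 lower (4.43%). Their median there was 1.39 on the log2 scale, against 0.20 over all genes. In CNT-like cells 2 were higher (background 3.79%), among them the heat shock gene Hspa1a at 366 and 81.9 CPM, and 3 lower (2.2%). In PC-like cells 2 were higher (background 2.84%) and 0 lower (3.43%). The part of these early genes in the Sgk1 values was not tested. Sgk1 in DCT-like cells had a ratio of -0.63 (-1.29 to 0.13).

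In TAL-like cells 1 of 10 genes, Slc12a3, was 2-fold lower (background 3.34%) and 0 were 2-fold higher (2.51%). It was read at 67.4 and 151 CPM, for a log2 ratio of -1.16 (-1.30 to -1.02). A shallow cluster of 97 and 556 cells, with a median of 763 and 946 UMIs, held 2064 and 860 CPM of Slc12a3, and without it the ratio was 2.95. Without that cluster the ratios of Scnn1b and Hsd11b2 were 2.36 and 1.26. In IC-like cells 1 gene, again Slc12a3, was 2-fold lower (background 4.84%) and 0 were higher (1.56%). Its 26.7 and 74.8 CPM gave a ratio of -1.49 (-1.74 to -1.23), and 10 cells held 96.0% of its wild-type UMIs. Hsd11b2 in IC-like cells had a ratio of -0.84 (-0.89 to -0.79), and Scnn1b -0.51 (-0.63 to -0.39). Without the Aqp2-rich group these were -2.20 and 0.07.

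Sgk1 in endothelial-like cells was slightly lower in PT I-PpoI over the class and slightly higher within its larger clusters. The class ratio was -0.28 (-0.34 to -0.22). In the cluster holding Kdr and Esm1 among its leading genes (406 and 1419 cells) Sgk1 reached 1207 and 1059 CPM, for a log2 ratio of 0.19 (0.11 to 0.27). In the cluster led by Slc14a1 (299 and 384 cells) it reached 511 and 461 CPM, for a log2 ratio of 0.15 (0.03 to 0.27). The former made up 48.1% and 68.2% of the class and the latter 35.4% and 18.5%. In endothelial-like cells 5 of 10 genes were 2-fold higher (background 5.55%) and 0 lower (4.43%), namely Slc12a3, Scnn1a, Scnn1g, Hsd11b2 and Klhl3, each at under 50 CPM. Scnn1g rested on 20 and 7 UMIs, with an interval of -0.18 to 2.60. Scnn1g and Klhl3 (67 and 17 UMIs) reached the 20-UMI minimum through PT I-PpoI alone, so nothing is read from their part of this count. With free RNA subtracted, Slc12a3 and Hsd11b2 were lower in PT I-PpoI, at -2.31 and -5.98. Scnn1a was at -0.14 with cells called by depth alone. Proximal tubule-like cells, the cells named for the enzyme, numbered 169 and 5873 and had 7 genes 2-fold higher (background 13.4%) and 0 lower (4.7%). The 7 were Slc12a3, Scnn1a, Scnn1b, Scnn1g, Nr3c2, Hsd11b2 and Sgk1. Scnn1g rested on 3 and 25 UMIs (-1.40 to 2.68) and Scnn1b on 8 and 52 (0.04 to 2.41). With free RNA subtracted, Slc12a3 (0 and 6.86 CPM), Scnn1b (0 and 0.28 CPM) and Scnn1g (0 and 0 CPM) were no longer higher. Scnn1a (2.9 and 1.5 CPM) and Nr3c2 (5.0 and 2.9 CPM) still were. Sgk1 in proximal tubule-like cells stood at 52.9 CPM (108 UMIs) and 25.6 CPM (853 UMIs), a ratio of 1.05 (0.74 to 1.34). In T- or NK-like cells 2 of the 5 genes with 20 or more UMIs were 2-fold higher (background 4.07%) and 1 lower (9.02%), the last being Sgk1 with a ratio of -1.04 (-1.57 to -0.57), and a cluster of 1 and 50 cells led by T cell genes held 525 CPM in wild type. In the other T- or NK-like cluster the ratio was 0.65 (-0.05 to 1.34).

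In the remaining classes, genes with 20 or more UMIs over both libraries were counted. In parietal epithelium-like cells 6 of 9 were 2-fold higher in PT I-PpoI (background 4.21%) and 0 lower (1.83%). Scnn1b (37 and 0 UMIs, from 4 cells) and Scnn1g (22 and 0 UMIs, from 3 cells) reached the minimum through PT I-PpoI alone, which fixed their direction, so nothing is read from this count. Hsd11b2 was at 174 CPM (298 UMIs) and 9.71 CPM (8 UMIs), and 10 of the 86 PT I-PpoI cells held 91.3% of those UMIs. Free RNA was estimated at 18.1% and 75.2% of UMIs in mural-like cells, the highest shares among the classes with an estimate. In mural-like cells 5 of 9 were higher (background 5.25%) and 1, Sgk1 at 14.2 and 47.9 CPM, was lower (5.29%). Of these, Scnn1a (47 and 4 UMIs), Scnn1b (25 and 4 UMIs) and Nedd4l (32 and 13 UMIs) reached the minimum through PT I-PpoI alone. Sgk1 (15 and 45 UMIs) did so through wild type alone. In thin limb-like cells 2 of 7 were higher (background 3.92%) and 0 lower (2.42%). The 2 were Slc12a3 (44 and 3 UMIs) and Hsd11b2 (110 and 3 UMIs), which also reached the minimum through PT I-PpoI alone. For this reason nothing is read from the mural- and thin limb-like counts. In dendritic-like cells 0 of 7 were higher (5.64%) or lower (3.06%). In macrophage-like cells 1 of 6, Slc12a3, was higher (background 4.57%) and 1, Nedd4l at 7.86 and 17.0 CPM, was lower (4.5%). Nedd4l (11 and 35 UMIs) reached the minimum through wild type alone there, so nothing is read from its part of this count. All 10 genes were more abundant in the free RNA of the PT I-PpoI library than in that of wild type, from Sgk1 at 66.5 and 23.9 CPM to Slc12a3 at 760 and 45.3 CPM. With free RNA subtracted, Slc12a3 stood at 0 and 0 CPM in thin limb-like, 14.02 and 23.3 CPM in macrophage-like, 28.8 and 51.2 CPM in mural-like and 0 and 6.86 CPM in proximal tubule-like cells, so that it was no longer higher in PT I-PpoI in these classes. In mural-like cells Hsd11b2 then stood at 0 and 72.7 CPM and Sgk1 at 2.68 and 120 CPM. Parietal epithelium-like cells have no such estimate.

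Partner genes of the pathway were read in 8 lists of 68 genes. Of 8 WNK, SPAK and CUL3 ligase genes compared, 0 were 2-fold different in DCT-, CNT- or PC-like cells. Wnk4, the WNK kinase that acts on NCC, was read at 63.9 and 41.3 CPM in PC-like cells, with a log2 ratio of 0.62 (0.27 to 1.01). The ubiquitin ligase partners and deubiquitinases (8 genes compared), the SGK and PI3 kinase genes (8) and the proteases and inhibitors that act on ENaC (6) also had 0 genes 2-fold different in these classes. St14, a membrane protease, was read at 76.1 and 50.6 CPM in DCT-like cells, with a log2 ratio of 0.58 (0.23 to 0.97). Genes on the list of corticosteroid receptor partners and steroid-responsive genes are called steroid-responsive here. Of 9 such genes compared in CNT-like cells, 2 were 2-fold higher (3.79% of all genes) and 0 lower (2.2%). The 2 genes were Fkbp5, a receptor co-chaperone induced by corticosteroids, and Tsc22d3, which encodes GILZ. Fkbp5 was at 17.9 CPM (42 UMIs) and 5.61 CPM (5 UMIs), with a log2 ratio of 1.56 (0.34 to 3.37). Tsc22d3 was at 23.9 CPM (56 UMIs) and 8.98 CPM (8 UMIs), with a log2 ratio of 1.34 (0.34 to 2.69). Both reached the UMI minimum through PT I-PpoI alone, which fixed their direction, so nothing is read from this count of 2 genes. Of 8 basolateral pump and channel genes, 1 was 2-fold lower in PC-like cells (Bsnd, 37 and 18 UMIs, background 3.43%). In DCT-like cells 0 of these genes differed 2-fold, and their median was 0.43 against -0.06 over all genes. Of 2 apical potassium channel genes compared, 0 differed 2-fold in these classes, and Kcnj1 was at 870 and 701 CPM in DCT-like cells. In endothelial-like cells 2 of 8 WNK list genes, 3 of 8 basolateral genes, 2 of 2 apical potassium channel genes, 1 of 10 steroid-responsive genes and 1 of 7 protease list genes were 2-fold higher (background 5.55%), and 1 protease list gene and 1 of 8 SGK and PI3 kinase genes were 2-fold lower (background 4.43%). In DCT- and PC-like cells 0 of 9 and 0 of 10 steroid-responsive genes differed 2-fold. The list median in CNT-like cells was 0.16, against 0.05 over all genes.

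By profile over the 13 classes, the genes fell beside different partners, as a description with no test. Nearest to Slc12a3 were Uroc1 (r = 0.955), Lrrc52 (0.912) and Pvalb (0.910), and nearest to Wnk1 and Klhl3 was Sall3 (0.932 and 0.912). Scnn1a had Atp4a (0.985), Tspan1 (0.971) and Atp6v1b1 (0.970), the last a proton pump subunit of intercalated cells. Hsd11b2 had Scnn1g (0.986), Col26a1 (0.985) and Grem1 (0.980), and Nr3c2 had Glg1 (0.976), Pomgnt1 (0.955) and Megf9 (0.95). Sgk1 had Ifit1 (0.9), Adam10 (0.885) and Ctso (0.877), and Nedd4l had Slc44a3 (0.96), Ythdf3 (0.937) and Smim6 (0.937). The classes share libraries and free RNA, so these values are not independent points.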

How the data were processed

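Single cells of mouse kidney cortex were counted with 10x 3′ v3.1 chemistry after enzyme digestion at 37 °C, per the labels. The deposited values were raw UMI counts of all barcodes for 31053 genes, made by the authors with Cell Ranger 3.1 on mm10 and used with Seurat 3, per the submitters' processing notes, while the matrix header names Cell Ranger 4, per the file headers. Total counts were 93257620 and 107977310 for PT I-PpoI and wild type.

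Barcodes were called as cells above 5651 and 3656 UMIs, or from 500 UMIs by difference from free RNA in a Monte Carlo test (rate 0.01). Cells with under 200 genes or over 50% mitochondrial UMIs were dropped, and Scrublet removed 81 (1.57%) and 262 (2.15%) doublets. Clustering (scanpy 1.11.5, 2000 variable genes, 30 components, 15 neighbours, Leiden resolution 1) left out the 10 genes and their partner lists. It gave 36 clusters. A class needed at least 50 cells per library to be compared, which 13 met. Class sums were scaled to CPM with 95% Poisson intervals, and library ratios used a prior of 0.5 counts and conditional binomial intervals. Shares carry Clopper-Pearson intervals after thinning to 2000 UMIs, with shallower cells left out. Genes with 20 or more UMIs over both groups compared entered the background shares. edgeR 4.0.16 gave TMM factors and no test. The ratio script was tested on simulated data. The genes named are the 10 members, the 3 profiles nearest to each, and up to 3 partner genes per list with 30 or more UMIs and the ratio furthest from 0. Other genes were named to describe clusters after their values were seen. Members, lists and rules were chosen with earlier results of these data known. Gene positions are from GENCODE M21 and promoters from RefSeq. The count of basolateral genes 2-fold different in CNT-like cells is not reported here.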

Additional observations from a re-analysis of the deposited data

Results flagged for a closer look

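Slc12a3 and Sgk1 were each 2-fold or more higher in some classes and 2-fold or more lower in others, counting classes with 20 or more UMIs of the gene in each library. These differences between classes were not tested. Slc12a3 had a log2 ratio of PT I-PpoI over wild type of 1.46 in proximal tubule-like, 1.23 in endothelial-like, 1.77 in mural-like and 1.00 in macrophage-like cells, and of -1.16 in TAL-like and -1.49 in IC-like cells. Sgk1 had a ratio of 1.05 in proximal tubule-like, 1.09 in CNT-like and 1.21 in PC-like cells, and of -1.04 in T- or NK-like cells. The Slc12a3 ratios in TAL- and endothelial-like cells changed sign under other settings. With free RNA subtracted, Slc12a3 was also lower in PT I-PpoI in proximal tubule-like (0 and 6.86 CPM), mural-like (28.8 and 51.2 CPM) and macrophage-like cells (14.02 and 23.3 CPM).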

How the results depend on the processing

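No paired analysis was possible because each group has 1 library. Of the library ratios recomputed under other settings, 461 kept their value within counting error and 202 moved. A further 14, all 2-fold or more as reported, changed sign. Ratios under 2-fold also changed sign in some settings without being counted among the 14. Wnk1 in CNT-like cells was -0.85 as reported and 0.70 without the Fxyd2-rich cells. Slc12a3 in TAL-like cells, -1.16 as reported, was 3.39 with cells called by depth alone, 2.82 with a mitochondrial limit of 30%, 0.41 at resolution 2, 2.32 with all variable genes, 2.01 with libraries clustered separately and 2.95 without the shallow cluster. Scnn1g in DCT-like cells was 0.21 without the Pvalb-low subcluster. In endothelial-like cells, calling by depth alone gave -1.81 for Slc12a3, -0.14 for Scnn1a and -0.33 for Hsd11b2. Subtracting free RNA gave -2.31 for Slc12a3 and -5.98 for Hsd11b2 there, and -0.98 and -0.53 with free RNA taken from barcodes of 100 or fewer UMIs. The median of the 10 genes in TAL-like cells, -0.19 under the main settings, moved to -0.75 with free RNA subtracted and was 0.31 without the shallow cluster. In PC-like cells it moved to -0.093 with free RNA subtracted, -0.024 with the low-barcode profile, -0.066 as a mean over cells and -0.042 when thinned. In IC-like cells it moved to 0.052 without the Aqp2-rich cells, 0.033 with TMM factors and 0.197 as a mean over cells. Causes were not tested. Resolution 0.5 and separate clustering gave no CNT-like value. Slc12a3 in DCT-like cells ranged from -0.16 to 0.11 and Sgk1 in PC-like cells from 1.00 to 1.39 over 14 settings. Settings that leave out a subcluster, the Fxyd2-rich, Aqp2-rich or shallow cells, and the low-barcode profile were chosen after seeing the data.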
